A study of Mus musculus with 6 samples.

Results

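Cells display fragments of their own proteins on major histocompatibility complex (MHC) class I molecules, and 10 genes of this route were examined in donor hematopoietic stem and progenitor cells (HSPCs) after bone marrow transplantation (BMT). The genes were given as a list by name: H2-K1 and H2-D1, which encode the classical class I heavy chains, B2m, their light chain, Tap1, Tap2 and Tapbp for peptide transport and loading, Psmb8, Psmb9 and Psmb10 for the immunoproteasome, and Nlrc5, a transcriptional activator of class I genes. All 10 were among the 24965 genes measured. Donor bone marrow came from WT or Hemgn-/- mice, and both kinds of donor cell carry CD45.2. The recipients were CD45.1+ mice that had received 9 Gy of irradiation as a split dose, and the donor cells were sorted from them 6 h after transplantation, in 3 libraries a group. The Hemgn-/- mice were made by zinc finger nuclease editing on a C57BL/6 background, with no driver that limits the loss to a cell type, and the study used male and female mice of 8 to 10 weeks with WT littermates. The labels give the sorted cells as CD45.2+Lin-Sca-1+, while the study's methods add c-Kit. The study calls the libraries biological replicates, and whether each stands for 1 recipient or a pool is not given in the sources used here, so p-values measure the spread between these libraries.

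Peptides for class I molecules are made by the proteasome, whose catalytic subunits are exchanged for Psmb8, Psmb9 and Psmb10 in cells exposed to interferon. The Tap1 and Tap2 transporter carries the peptides into the endoplasmic reticulum, where Tapbp (tapasin) holds the empty heavy chain and B2m beside it until a peptide binds. Interferon induces Irf1, which binds IRF sites, and Nlrc5 binds the class I promoters together with RFX, CREB/ATF and NF-Y factors. The route is known for showing cells to CD8 T cells, and the heavy chains also serve as ligands of natural killer cell receptors, which can reject transplanted marrow cells that display too few of them.

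Levels are FPKM, fragments divided by transcript length and by the library's total, so a comparison between genes depends on the length used for each. The depth recovered from the steps of the low values was 23667810 to 28897049 fragments a library. Hemgn itself had 5.64, 2.96 and 4.68 FPKM in the WT libraries and 0.755, 0.913 and 1.6 FPKM in the Hemgn-/- libraries (limma, log2 fold change -1.37, adjusted p = 0.0114). The defining HSPC markers were low. Kit, the gene of c-Kit, stood between 5.50 and 7.24 FPKM over all 6 libraries, and 12 HSPC markers summed to 44.8 to 49.0 FPKM in WT and 54.6 to 64.0 FPKM in Hemgn-/- libraries, with 2 of 11 tested higher and 0 lower. As background, 4.37% of all genes tested were called higher and 2.09% lower in Hemgn-/- libraries. Genes of several other cell types were present, and some of their lists moved with genotype. A list of 12 neutrophil genes summed to 20.2 to 21.6% of all FPKM in WT and 14.3 to 15.2% in Hemgn-/- libraries, and 6 of the 12 were lower. The erythroid list (11 genes) summed to 472.9 to 561.4 FPKM in WT and 43.4 to 62.5 FPKM in Hemgn-/- libraries, with 5 of 10 tested lower. The other lists whose sums did not overlap were higher in Hemgn-/- libraries: B cell genes, 1308 to 1359 against 1538 to 1700.0 FPKM with 4 of 10 higher, plasmacytoid dendritic cell genes, 317.3 to 318.3 against 395.3 to 470.3 FPKM with 4 of 10 higher, and T and NK cell genes, 270.5 to 304.4 against 334.1 to 353.2 FPKM with 3 of 12 higher. The sums of the macrophage list overlapped, at 438.3 to 500.3 and 368.3 to 457.4 FPKM with 2 higher and 2 lower of 9 tested, as did those of the endothelial list, at 22.3 to 23.7 and 21.7 to 25.8 FPKM. Some sums rest largely on a few abundant genes, named here after their values were seen. Hba-a1 fell from a mean of 296.5 to 17.7 FPKM and Hbb-bs from 171.0 to 10.7 FPKM. Klf1, Epor, Car1 and Tfrc of the same list were not called (log2 fold changes -0.105, 0.064, -0.052 and -0.054). Ngp fell from 44880 to 27130 FPKM, while Mmp8 had 2696 and 2705 FPKM. In the plasmacytoid list Spib rose from 145.3 to 231.7 FPKM. Class I genes are expressed by most nucleated cells. The part of these shifts in the results that follow was not tested, and in such bulk samples fewer cells of a type and less RNA per cell cannot be told apart.

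The promoters of the genes that the results turn on are shown first, since H2-K1, H2-D1 and B2m carry the same elements and yet had different calls. The sequences are those of RefSeq on GRCm38.p6, the 250 bases before the annotated start, read in the direction of the gene. They were available for 8 of the 10 genes, and Tap2 and Nlrc5 have no entry. Capitals mark matches to motifs that were chosen after the promoters had been read: an IRF site (AANNGAAA), a kappaB site (GGG, 2 free bases, TT, 1 free base and CC), a CRE core (TGACG) and a Y box (CCAAT), each on either strand. H2-K1 is printed from chr17:34000348-34000597 (minus strand, the outer of its 2 annotated starts), H2-D1 from chr17:35262844-35263093 (plus strand) and B2m from chr2:122147437-122147686 (plus strand). Tap1 and Psmb9 run in opposite directions from RefSeq starts that lie 226 bases apart. The stretch between both starts is printed as chr17:34187331-34187555 (plus strand, Tap1 to the right).
H2-K1: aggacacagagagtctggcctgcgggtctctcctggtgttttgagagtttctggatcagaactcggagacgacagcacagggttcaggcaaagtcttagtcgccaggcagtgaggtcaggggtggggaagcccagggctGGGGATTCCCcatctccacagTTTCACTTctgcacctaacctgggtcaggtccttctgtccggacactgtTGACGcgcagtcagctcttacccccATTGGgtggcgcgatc
H2-D1: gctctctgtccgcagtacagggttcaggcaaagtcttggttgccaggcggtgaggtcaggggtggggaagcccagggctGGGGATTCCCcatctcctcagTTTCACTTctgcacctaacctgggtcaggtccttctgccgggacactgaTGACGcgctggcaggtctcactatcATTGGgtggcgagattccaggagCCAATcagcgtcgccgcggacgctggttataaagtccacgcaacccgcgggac
B2m: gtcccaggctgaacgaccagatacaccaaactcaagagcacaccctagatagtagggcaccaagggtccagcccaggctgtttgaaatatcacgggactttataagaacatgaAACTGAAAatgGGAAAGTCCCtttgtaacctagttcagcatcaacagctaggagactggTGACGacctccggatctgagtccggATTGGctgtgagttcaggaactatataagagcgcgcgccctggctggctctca
Tap1-Psmb9: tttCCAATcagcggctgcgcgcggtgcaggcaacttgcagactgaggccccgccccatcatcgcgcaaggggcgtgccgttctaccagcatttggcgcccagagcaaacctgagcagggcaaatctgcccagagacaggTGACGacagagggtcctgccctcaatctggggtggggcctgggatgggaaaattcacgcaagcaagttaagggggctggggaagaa

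In all of H2-K1, H2-D1 and B2m a CRE core is followed by a Y box that begins 25 bases further on. Among 32851 promoter windows of the same length, 30 held this spaced pair (0.0913%), and the windows belong to 26 genes. Like the single motifs, the pair was defined after the promoters had been read. Its presence in H2-K1, H2-D1 and B2m was therefore fixed in advance, and their windows are among the 30. An IRF site lay upstream of the CRE core, 49 bases from it in H2-K1 and H2-D1 and 59 bases in B2m, and each of the 3 promoters also held a kappaB site. Taken singly, the IRF site occurs in 21.3% of all windows, the kappaB site in 4.11%, the CRE core in 17.8% and the Y box in 33.8%. From the kappaB site to the end of the Y box, H2-K1 and H2-D1 matched at 89 of 100 bases without a gap. The stretch between Tap1 and Psmb9 held a CRE core and a Y box, but not in this spacing, and no IRF or kappaB match. Of Psmb8, Psmb10 and Tapbp, only Psmb8 held a GAS motif (TTCNNNGAA, in 7.02% of windows), only Tapbp a Y box, and none a CRE core. Such matches describe the letters of the windows and do not show that a factor binds there.

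Of the 10 genes, all of which were tested, 2 were higher in Hemgn-/- libraries (Tap1 and Nlrc5), 1 was lower (H2-K1) and 7 did not pass an adjusted p of 0.05. These calls come from limma on log2(FPKM + 1), with Benjamini-Hochberg adjustment over 13739 genes, of which 887 were called (6.46%), 600 higher (4.37%) and 287 lower (2.09%). The balance of higher and lower calls depends on the scaling between libraries, with 341 higher and 386 lower under median-ratio scaling, 368 and 346 under quantile normalization, and 1049 and 238 after rescaling to the same FPKM total. The lowest Hemgn-/- library stood above the highest WT library in 6 of the 10 genes, where 19.2% of all genes tested did so, and below the WT libraries in 1, where 8.18% did (27.4% of all genes tested for either direction). The median log2 fold change of the 10 genes was 0.15, beside 0.09 for all genes tested.

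**Figure D1:**
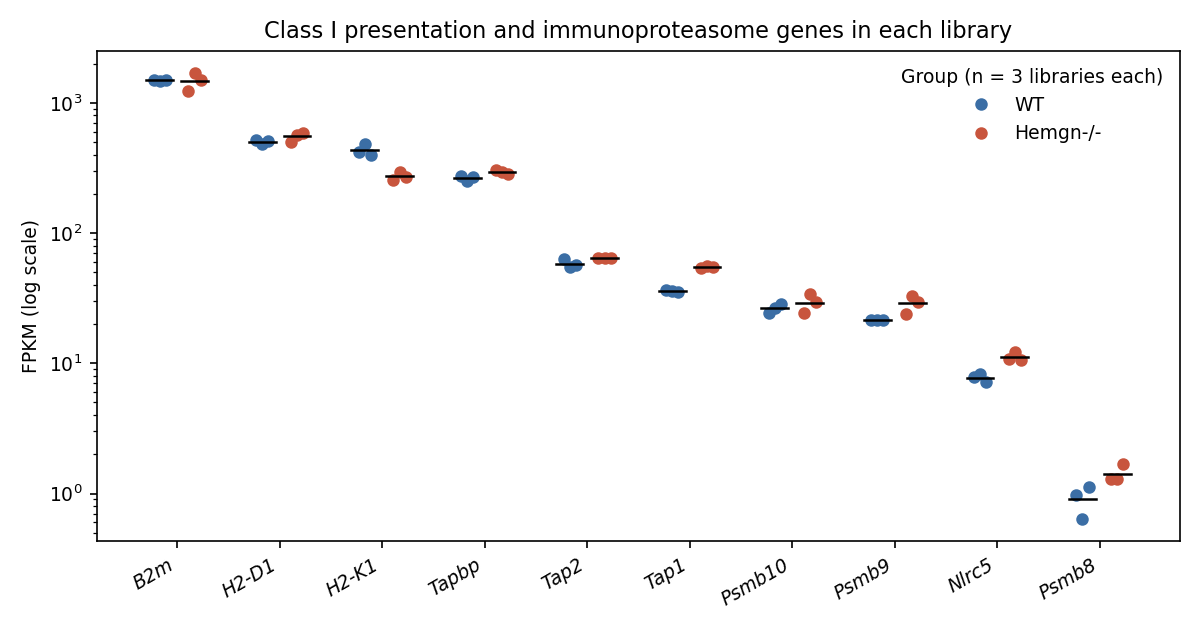
FPKM of the 10 genes on a log axis, with 1 point per library (blue WT, red Hemgn-/-, 3 libraries each) and a black line at each group mean, ordered by the WT mean. H2-K1 is the gene whose Hemgn-/- points all lie under the WT points, and the Tap1 points of each group lie close together and apart from the other group.

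The levels of the 10 genes spanned from about 1 to about 1500.0 FPKM. In WT libraries the order of the means was B2m, H2-D1, H2-K1, Tapbp, Tap2, Tap1, Psmb10, Psmb9, Nlrc5 and Psmb8. Of the 9 neighbours in that order, 8 did not overlap between their libraries, and H2-D1 with H2-K1 did. In Hemgn-/- libraries Tapbp passed H2-K1, with means of 295 and 275 FPKM, but their libraries overlapped, as did those of Psmb10 and Psmb9.

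Of the classical heavy chains, H2-K1 was called lower and H2-D1 was not called. H2-K1 (ENSMUSG00000061232, GRCm38 chr17:33996017-34000347) had 423.1, 482.0 and 398.0 FPKM in the WT libraries and 257.0, 296.4 and 271.1 FPKM in the Hemgn-/- libraries. Every Hemgn-/- library was under every WT library, and the mean fell from 434 ± 43.1 to 275 ± 19.96 FPKM (SD, n = 3 each), which is 1.58-fold lower. The log2 fold change was -0.66 with a standard error of 0.09 (limma, adjusted p = 0.00384), and the call held in all 15 alternative settings. H2-D1 (ENSMUSG00000073411, chr17:35262730-35267499) had 514.1, 481.4 and 507.8 FPKM in WT and 500.2, 569.9 and 588.8 FPKM in Hemgn-/- libraries. These values overlapped, with means of 501 ± 17.4 and 553 ± 46.7 FPKM, a log2 fold change of 0.14 and a 95% interval from -0.03 to 0.30 (limma, adjusted p = 0.32).

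The ratio of H2-K1 to H2-D1 within a library was 0.823, 1.00 and 0.784 in WT and 0.514, 0.520 and 0.461 in Hemgn-/- libraries, without overlap, and the difference between both genes was not tested further. The heavy chain genes share stretches of sequence, and reads could be divided between them. Of the 100-base stretches of its transcripts, 0.957% in H2-K1 and 3.59% in H2-D1 also occur in another gene.

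B2m (ENSMUSG00000060802, chr2:122147686-122153083), the light chain of class I molecules, was the most abundant of the 10 transcripts in both groups. It had 1500.0, 1485 and 1498 FPKM in WT and 1244, 1695 and 1502 FPKM in Hemgn-/- libraries. The WT values had an SD of 8.21 FPKM, and the Hemgn-/- values lay on both sides of them with an SD of 226 FPKM. Its log2 fold change of -0.03, with a 95% interval from -0.25 to 0.20, did not pass the test (limma, adjusted p = 0.917), and its sign turned after rescaling to the same FPKM total (0.06) and without Hemgn-/- replicate 1 (0.10).

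Of 20 other class I and class I-like heavy chain genes listed, 14 were tested, with a median log2 fold change of 0.17. Of these, 4 were higher in Hemgn-/- libraries and 0 lower, where 4.37% and 2.09% of all genes tested were. Without adjustment, 8 of the 14 had a p under 0.05 (limma), with H2-T10 and Fcgrt lower and the others higher. The share of all genes tested with such a p was not counted. Such p-values were common, as the p of 0.0436 of Fcgrt became 0.217 after adjustment (limma). H2-T23, which encodes the nonclassical molecule Qa-1, had 89.6, 88.1 and 89.4 FPKM in WT and 126.1, 137.2 and 139.7 FPKM in Hemgn-/- libraries. The WT libraries were nearly level and the mean rose 1.51-fold (log2 fold change 0.59, standard error 0.07, limma, adjusted p = 0.0021), a call that held in all 15 alternatives. H2-M3, which presents formylated peptides, had 23.04, 19.7 and 28.5 FPKM in WT and 36.5, 36.7 and 37.7 FPKM in Hemgn-/- libraries, with no overlap (log2 fold change 0.63, limma, adjusted p = 0.021). H2-T24 had 26.2, 24.3 and 28.7 FPKM in WT and 37.0, 36.0 and 47.1 FPKM in Hemgn-/- libraries (0.57, limma, adjusted p = 0.0241). H2-Q4, at 3.30, 2.77 and 1.84 FPKM in WT, stood at 5.18, 5.31 and 4.84 FPKM in Hemgn-/- libraries (0.77, limma, adjusted p = 0.0321).

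The calls of H2-M3, H2-T24 and H2-Q4 were lost when some single libraries were left out. H2-M3 lost its call without WT replicate 1 (adjusted p = 0.0696) or without Hemgn-/- replicate 1, 2 or 3 (0.0535, 0.0664 and 0.0872, limma). H2-T24 lost it without WT replicate 1 or 2 (0.0757 and 0.0632) or Hemgn-/- replicate 3 (0.0742). H2-Q4 lost it without WT replicate 2 or 3 (0.0555 and 0.0659) or any of the Hemgn-/- libraries (0.0828, 0.101 and 0.092). With every library kept, H2-T24 and H2-Q4 also lost it under median-ratio scaling (0.0517 and 0.0534) and quantile normalization (0.0506 and 0.0544, limma). Each of H2-M3, H2-T24 and H2-Q4 lost it without a trend and with all genes above 0 FPKM. The values of H2-T10, chosen after they were seen, went the other way, at 2.1, 2.56 and 2.36 FPKM in WT and 1.39, 1.61 and 1.73 FPKM in Hemgn-/- libraries, without passing the test (-0.38, limma, adjusted p = 0.195).

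The summed heavy chain level depended on the genes and the scaling. Added over 16 H2 heavy chain genes, the level was 1225, 1247 and 1189 FPKM in WT and 1118, 1242 and 1251 FPKM in Hemgn-/- libraries. The groups overlapped, with means of 1220.0 ± 29.4 and 1204 ± 74.7 FPKM, and the log2 difference of -0.02 had p = 0.9 in an exact two-sided permutation test over the 20 splits, whose smallest p is 0.1. The sign of this difference turned without Hemgn-/- replicate 1 (0.03) and after rescaling to the same FPKM total (0.07), while under median-ratio scaling it was -0.12 (exact permutation p = 0.1, the smallest possible). The sum of H2-K1 and H2-D1 alone was 937.3, 963.4 and 905.8 FPKM in WT and 757.2, 866.3 and 859.9 FPKM in Hemgn-/- libraries. These did not overlap, with a log2 difference of -0.18 (exact permutation p = 0.1, the smallest possible). In the makeup of the sum, H2-K1 gave 34.5, 38.6 and 33.5% of the sum in WT and 23, 23.9 and 21.7% in Hemgn-/- libraries, and H2-D1 gave 42.0, 38.6 and 42.7% and then 44.7, 45.9 and 47.0%. The 5 H2-T genes were 44.6% higher and the 6 H2-Q genes 14.9% higher in mean summed FPKM. The ratio of B2m to the summed heavy chains was 1.22, 1.19 and 1.26 in WT and 1.11, 1.36 and 1.2 in Hemgn-/- libraries, which overlap.

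**Figure D2:**
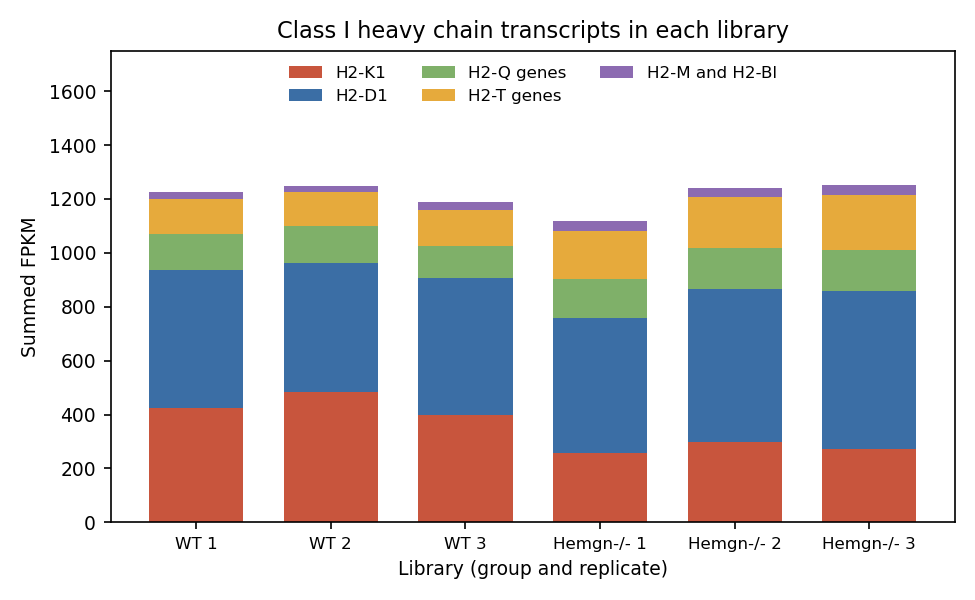
Summed FPKM of 16 H2 class I heavy chain genes in each of the 6 libraries, as stacked bars from 0. The bars reach 1118 to 1251 FPKM in both groups, while the red H2-K1 segment is smaller and the orange H2-T segment taller in the 3 Hemgn-/- libraries.

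Of the 26 genes with the spaced pair in the promoter, 18 were tested. Of these, 3 were higher and 1 lower in Hemgn-/- libraries, where 4.37% and 2.09% of all genes tested were. H2-M3 (log2 fold change 0.63), Ibsp (1.19) and Trim26 (0.40), chosen after their values were seen, were the higher ones (limma, adjusted p = 0.021, 0.0112 and 0.034), and H2-K1 the lower one. H2-D1 and B2m were among the 14 not called. H2-K1 and H2-M3, which both hold this arrangement, had opposite calls. The set includes H2-K1, H2-D1 and B2m, whose promoters had been read before the pair was defined.

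Of Tap1, Tap2 and Tapbp, only Tap1 was called. Tap1 (ENSMUSG00000037321, chr17:34187553-34197225), the first chain of the transporter, had 36.6, 36.0 and 35.4 FPKM in WT and 53.6, 55.4 and 55.0 FPKM in Hemgn-/- libraries. Both groups were tight and far apart, and the mean rose 1.52-fold from 36.0 ± 0.586 to 54.7 ± 0.941 FPKM (log2 fold change 0.59, standard error 0.07, limma, adjusted p = 0.0023). The call held in all 15 alternatives, with log2 fold changes from 0.49 to 0.69.

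Its partner Tap2 (ENSMUSG00000024339, chr17:34203527-34216321) had 62.8, 55.3 and 56.5 FPKM in WT and 64.0, 64.1 and 64.6 FPKM in Hemgn-/- libraries. The groups did not overlap, but the difference was small and did not pass the test (log2 fold change 0.14, 95% interval -0.03 to 0.31, limma, adjusted p = 0.322). The Tap1 to Tap2 ratio was 0.583, 0.651 and 0.627 in WT and 0.838, 0.865 and 0.851 in Hemgn-/- libraries, without overlap. How near the levels of both chains lie to each other depends on the lengths used, while the change of the ratio does not. In recovered fragments Tap1 was under Tap2 in WT libraries (4745 against 5622 in WT 1). It was above Tap2 in Hemgn-/- libraries (8055 against 6635 in Hemgn-/- 1). Tapbp (ENSMUSG00000024308, chr17:33915899-33929292), the tapasin gene, had 275.5, 251.0 and 268.5 FPKM in WT and 302.5, 295.4 and 286.5 FPKM in Hemgn-/- libraries, again without overlap and without passing the test (0.15, 95% interval 0.01 to 0.29, limma, adjusted p = 0.194). Genes on the other strand share exon bases with Tapbp (24.9% of its exon bases, Gm19412) and Tap2 (14.1%, Gm15821). The libraries are not stated to keep strand, so such reads cannot be assigned to either gene.

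None of 7 genes of peptide trimming and heavy chain folding was called by limma, where 6.46% of all genes tested were. With so few genes, 0 is near that share. Their median log2 fold change was 0.00. Limma's voom on the recovered fragments also called 0. The share of all genes with an unadjusted p under 0.05 was not counted, and 2 of the 7 had one. These, named after their values were seen, were Erap1, which trims peptides to length, with 8.10, 8.78 and 9.49 FPKM in WT and 9.99, 11.0 and 11.1 FPKM in Hemgn-/- libraries, and Tapbpl, a relative of tapasin, with a mean of 13.5 FPKM in WT and 16.4 FPKM in Hemgn-/- libraries (limma, adjusted p = 0.194 and 0.177).

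The inducible proteasome subunits all had higher means in Hemgn-/- libraries, and none passed the test. Psmb9 (ENSMUSG00000096727, chr17:34181987-34187764), which shares its upstream region with Tap1, had 21.4, 21.4 and 21.6 FPKM in WT and 24.1, 32.9 and 29.7 FPKM in Hemgn-/- libraries. The WT libraries were level at 21.5 ± 0.161 FPKM, the Hemgn-/- libraries were all above them at 28.9 ± 4.43 FPKM, and the log2 fold change was 0.40 with a 95% interval from 0.14 to 0.66 (limma, adjusted p = 0.0804). It passed the threshold without Hemgn-/- replicate 1 (log2 fold change 0.52, adjusted p = 0.024) and after rescaling to the same FPKM total (0.50, adjusted p = 0.0259, limma). In GENCODE M21, where Psmb9 reaches past the RefSeq start of Tap1 (34187556), both genes overlap by 212 exon bases. These are 5.79% of the exon bases of Psmb9 and 3.87% of those of Tap1. The RefSeq starts used for the printed stretch leave a gap instead.

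Psmb10 (ENSMUSG00000031897, chr8:105935735-105938444), which lies outside the MHC, had 24.4, 26.8 and 28.4 FPKM in WT and 24.2, 33.8 and 29.4 FPKM in Hemgn-/- libraries. The groups overlapped (log2 fold change 0.12, 95% interval -0.17 to 0.40, limma, adjusted p = 0.621). Psmb8 (ENSMUSG00000024338, chr17:34197721-34201454) was the lowest of the 10 transcripts, at 0.973, 0.643 and 1.12 FPKM in WT and 1.29, 1.29 and 1.68 FPKM in Hemgn-/- libraries. All 3 Hemgn-/- libraries were above the WT libraries, but the interval of the log2 fold change ran from -0.10 to 0.78 around 0.34 (limma, adjusted p = 0.351). An antisense gene, Gm20496, shares 14.7% of the exon bases of Psmb8. The 6 values of Psmb8 came out as whole fragments (45 to 133 a library) at a length of 2736 bases, while GENCODE M21 gives 3381 exon bases. Its level against other genes therefore depends on the length the authors used, while its fold of means (1.56) does not. The change on log2(FPKM + 1) does depend on it, since the added 1 is near the level of Psmb8. With a pseudocount of 0.1 the log2 fold change was 0.61 (limma, adjusted p = 0.331).

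Psmb8, Psmb9 and Psmb10 replace Psmb5, Psmb6 and Psmb7 in the assembled particle. Psmb5 had 9.58 ± 0.684 FPKM in WT and 10.3 ± 3.01 FPKM in Hemgn-/- libraries, Psmb6 had 9.14 ± 0.952 and 9.38 ± 1.13 FPKM, and Psmb7 had 16.0 ± 0.725 and 14.4 ± 3.04 FPKM (SD, n = 3 each, limma, adjusted p = 0.894, 0.909 and 0.576). At the lengths the authors used, Psmb9 and Psmb10 were thus above the subunits they replace in both groups, and Psmb8 was under Psmb5. The order of Psmb10 and Psmb7 depends on these lengths, since WT 1 had 984 recovered fragments of Psmb10 and 1310 of Psmb7. The ratio of Psmb9 to Psmb6 was 2.41, 2.56 and 2.12 in WT and 2.54, 4.01 and 2.84 in Hemgn-/- libraries, and that of Psmb8 to Psmb5 was 0.0969, 0.0731 and 0.113 against 0.186, 0.101 and 0.151, both with overlap. The ratio of Psmb10 to Psmb7 was 1.51, 1.77 and 1.72 in WT and 2.18, 1.97 and 1.96 in Hemgn-/- libraries, without overlap, although neither gene was called. Over 8 genes of constitutive catalytic subunits, activators and assembly, limma and voom each called 0, where limma called 6.46% of all genes tested. With so few genes, 0 is near that share. The median log2 fold change was -0.05. The share of all genes with an unadjusted p under 0.05 was not counted, and 1 of the 8 had one. That 1 gene, likewise named after its values were seen, was Pomp, an assembly factor, with 13.4, 12.9 and 13.2 FPKM in WT and 10.6, 11.8 and 10.9 FPKM in Hemgn-/- libraries (-0.23, limma, adjusted p = 0.189).

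**Figure D3:**
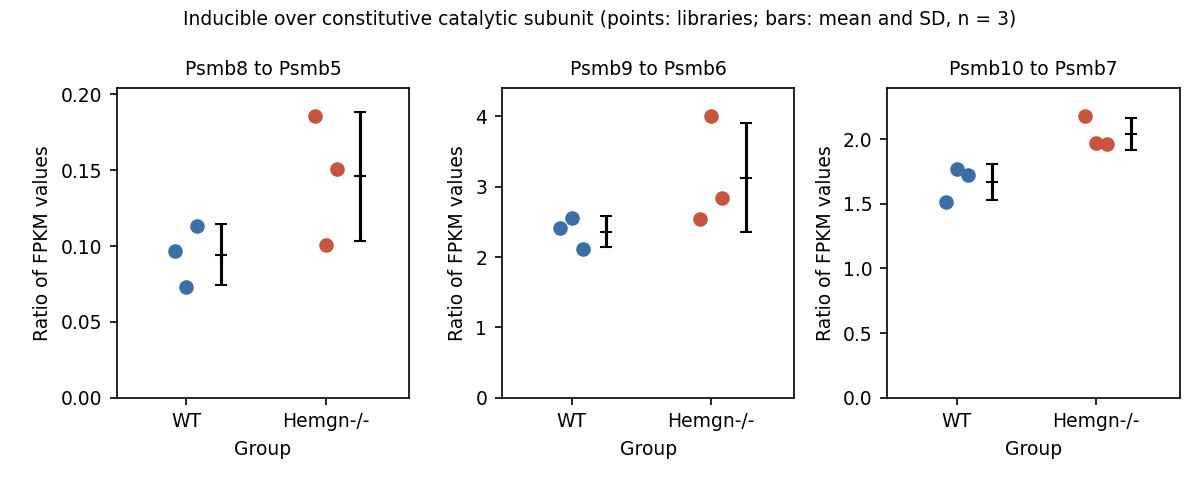
Ratio of the FPKM of each inducible subunit to that of the constitutive subunit it replaces, in each library (points, blue WT and red Hemgn-/-), with mean and SD beside them and axes from 0. In the Psmb10 to Psmb7 panel the groups stand apart, at 1.67 ± 0.14 and 2.04 ± 0.12, and in the other panels they overlap.

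Nlrc5 (ENSMUSG00000074151, chr8:94434356-94527272), the activator that works on class I promoters, had 7.85, 8.22 and 7.15 FPKM in WT and 10.8, 12.3 and 10.6 FPKM in Hemgn-/- libraries. The groups did not overlap, and the mean rose 1.45-fold from 7.74 ± 0.546 to 11.2 ± 0.906 FPKM (log2 fold change 0.48, standard error 0.11, limma, adjusted p = 0.0324). The direction held in all 15 alternatives, but the adjusted p missed 0.05 in 10 of them. With all 6 libraries it missed under median-ratio scaling (0.0765) and quantile normalization (0.0686, limma). It also missed without a trend (0.0725), with all genes above 0 FPKM (0.0626) and with a replicate block (0.0567, limma). The other misses were without WT replicate 1 (0.0844), WT replicate 3 (0.10), Hemgn-/- replicate 1 (0.0629), Hemgn-/- replicate 2 (0.104) and Hemgn-/- replicate 3 (0.0851).

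Of 16 transcription factors of class I and interferon signalling, 14 were tested, with a median log2 fold change of 0.16. Of these, 2 were higher and 0 lower in Hemgn-/- libraries, where 4.37% and 2.09% of all genes tested were. Irf1, the interferon-induced factor, had 52.1, 52.0 and 42.6 FPKM in WT and 76.9, 82.7 and 88.3 FPKM in Hemgn-/- libraries (log2 fold change 0.75, standard error 0.10, limma, adjusted p = 0.00384). Ciita, the relative of Nlrc5 that activates class II genes, had 10.0, 8.0 and 8.54 FPKM in WT and 16.0, 17.9 and 17.4 FPKM in Hemgn-/- libraries, 1.93-fold higher in the mean (0.88, standard error 0.11, limma, adjusted p = 0.00289). Both calls held in all 15 alternatives.

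**Figure D4:**
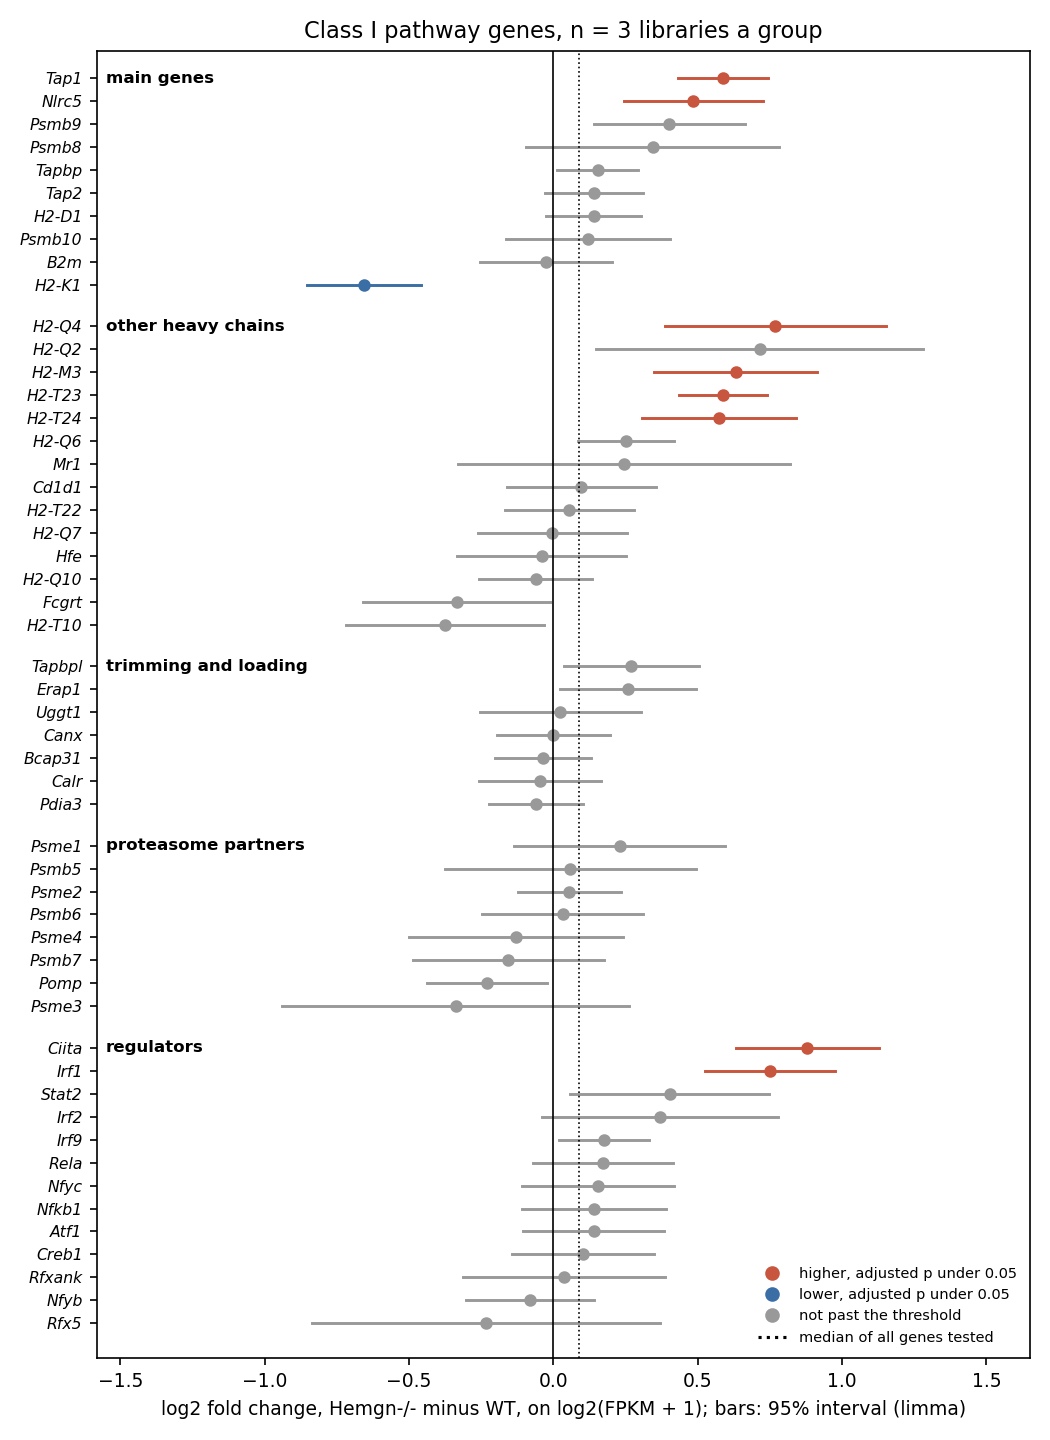
Log2 fold changes (Hemgn-/- minus WT, on log2(FPKM + 1)) of the 10 main genes and of the tested genes of 4 related lists, 1 gene not reported here left out, with 95% intervals from limma, 3 libraries a group. Red marks genes called higher and blue genes called lower, the dotted line is the median of all genes tested (0.09), and H2-K1 is the single blue point.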

How the data were processed

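The authors deposited FPKM values per gene for 3 WT and 3 Hemgn-/- libraries of Smart-Seq2 cDNA (the labels name another library kit). The submitters' processing notes name Bowtie2 2.2.3, HISAT2 2.1.0, TopHat2, HTSeq 0.6.0 and GRCm38 without their roles, and the annotation is not given in the sources used here. Of 24965 genes, 24921 matched GENCODE M21 by identifier, and 8 symbols shared by several genes were not used by name. Depth was recovered from the FPKM steps and exon lengths, and of 13486 genes with at most 100 fragments, 95.7% were whole within 0.05 in all 6 libraries. Summed over matched genes, the recovered fragments exceeded the recovered depth in every library (25213335 against 23667810 in WT 1). The recovered fragments are therefore approximate for some genes, and voom rests on them. PCR copies are not independent molecules.

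The fit took every gene that exceeded an FPKM of 1 in any library, on log2(FPKM + 1), which understates changes of low genes, and used limma 3.58.1 in R 4.3.3 (lmFit, eBayes with a trend, no covariate). P-values are two-sided and adjusted by Benjamini-Hochberg over all genes tested. The script was tested on simulated data. Sums were compared by exact permutation over libraries. Motifs were searched with Python 3.11.15, numpy 2.4.6 and pandas 2.3.3, and figures drawn with matplotlib 3.10.9.

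The genes and lists were chosen with earlier results of these data known. Named are the 10 genes, called genes of the 4 pathway lists, and Psmb5, Psmb6 and Psmb7. H2-L and H2-Q8 were not analysed here. A gene of the lists entered the fit and the counts but is not reported here. Alternatives were a pseudocount of 0.1, other filters and scalings, no trend, voom, a replicate block and leaving out each library. The study numbers the libraries 1 to 3 in each group. Same-numbered libraries did not deviate together (r = -0.0428, -0.00936 and 0.0111).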

Additional observations from a re-analysis of the deposited data

How the results depend on the processing

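For 16 named genes under 15 alternatives, 204 of 240 results kept their direction and their side of the threshold, 32 no longer passed it, 2 newly passed it (Psmb9) and 2 changed sign. The sign changes were those of B2m, to 0.064 after rescaling to the same FPKM total and 0.095 when Hemgn-/- replicate 1 was left out (range with a library left out, -0.128 to 0.095). H2-K1 ranged from -0.76 to -0.57 and Tap1 from 0.49 to 0.69 on the log2 scale. The genes called over the whole table fell from 887 to 466 with all genes above 0 FPKM, to 390 without a trend, and to between 373 and 688 when a library was left out (470 and 494 after dropping WT replicates 1 and 3, and 525 and 373 after dropping Hemgn-/- replicates 2 and 3). Of the other heavy chains, 4 in the fit described, 1 was called with all genes above 0 FPKM and 1 without a trend, 2 under median-ratio scaling and 2 under quantile normalization, and 1 to 3 with a library left out. The summed heavy chains had log2 differences from -0.05 to 0.031 with a library left out, changing sign to 0.031 without Hemgn-/- replicate 1 and to 0.067 after rescaling to the same FPKM total (exact permutation p = 0.3 each), and were -0.125 under median-ratio scaling and -0.179 for H2-K1 and H2-D1 alone (exact permutation p = 0.1 each, the smallest possible). The cause of these changes was not tested, beyond the fewer libraries or more genes tested. With the replicate number as a block, 636 genes were called and 2 of the 10 genes were, Nlrc5 missing the threshold (limma, adjusted p = 0.0567). The correlations of same-numbered libraries do not show that the numbers pair them, and not every library correlated best with its own number. With 3 libraries a group, the interval of Psmb8 also covers a change as large as that of Nlrc5.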
